A study of Mus musculus with 9 samples.

Results

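Fc receptors are the 7 mouse genes Fcgr1, Fcgr2b, Fcgr3, Fcgr4, Fcer1g, Fcer1a and Fcgrt, described here in a leukaemia cell line in which Zeb1 was targeted. They were taken by gene symbol, with the brightest probe set (the array's reporter of a gene) where a gene has several. Each gene had 1 probe set, so they make up 7 of the 19572 named probe sets, and no choice between probe sets was needed. The family was selected on the measured log2 values of Fcgr3 in ZEB C against SCR and ZEB D, whose differences were already known. The values of Fcgr3 in comparisons with ZEB C are therefore a description and support nothing by themselves.

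C1498 is a mouse cell line labelled as acute myeloid leukaemia. Cells received lentivirus that expressed GFP and a short hairpin RNA against Zeb1, sequence C (arrays labelled ZEB C) or sequence D (ZEB D), or the negative control hairpin (SCR). Cells positive for GFP were isolated 2 weeks after infection, and their total RNA was hybridised to 1-colour arrays, 3 in each of the 3 groups. All groups therefore share the virus, GFP and the isolation step. The labels name neither the hairpin's promoter nor whether each array had its own infection. The p-values measure only the spread between these arrays, which may be technical, and the number of arrays limits the precision.

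Fc receptors bind the constant part of antibodies and tie antibody to cell function. In the mouse, Fcgr1, Fcgr3 and Fcgr4 encode activating receptors for IgG that reach the cell surface with the signalling chain encoded by Fcer1g, whose ITAM (a tyrosine motif) recruits the kinase Syk. Fcgr2b encodes the inhibitory IgG receptor, which carries its own ITIM and recruits the phosphatase encoded by Inpp5d. Fcer1a encodes the IgE-binding chain of the mast cell and basophil receptor, and Fcgrt the receptor that recycles IgG with B2m. In myeloid cells these receptors are known for phagocytosis and cytokine release, and in NK cells Fcgr3 triggers killing of antibody-coated targets.

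The arrays bear on the labels in 3 ways. Zeb1, on chromosome 18, measured 10.41, 10.01 and 10.34 in ZEB C, 9.56, 9.26 and 9.40 in ZEB D and 10.52, 10.29 and 10.56 in SCR (log2 RMA signal). It fell in ZEB D by 1.05 ± 0.16 (SE; limma adjusted p = 0.0263), a call lost without 5 of the 9 arrays in turn, with a trended robust prior and with only the 2 groups compared. In ZEB C it stood at 86.9% of SCR (limma adjusted p = 0.895), so ZEB C here means the arrays that carry this label. Of 8 measured monocyte and macrophage markers only Cx3cr1 averaged above the median level of all named probe sets (7.10), and Csf1r, Cd14, Lyz2 and Adgre1 did not. Ccr2, a chemokine receptor of monocytes, averaged above it in SCR only, with 6.04 in ZEB C, 4.91 in ZEB D and 8.12 in SCR. Its ZEB C arrays spread widely, at 8.14, 5.66 and 4.33. ZEB C 10 thus lay within the SCR range of 7.38 to 8.52. Of 7 T cell markers 5 lay above it, with Cd3g between 15.38 and 15.71 on every array. Of 10 mast cell and basophil markers 8 lay below it, while the protease gene Cpa3 lay between 14.98 and 15.66. Finally, the arrays were split into 2 sets that the labels do not name. The split is by the sign of the leading principal component of the residuals within groups. SCR 8, ZEB C 12, ZEB D 14 and ZEB D 15 formed 1 set, and the other 5 arrays another. Residuals cancel within each group, so every group had to fall in both sets.

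Fcgr3, the low-affinity activating IgG receptor CD16, was far lower in ZEB C than in either other group. It measured 7.80, 7.87 and 7.66 in ZEB C, 10.93, 10.99 and 11.37 in ZEB D and 12.19, 11.75 and 11.68 in SCR. No array of ZEB C came within 3 log2 units of an array of another group, and the 3 ZEB D arrays lay below the 3 SCR arrays without overlap. The mean of 7.78 ± 0.11 in ZEB C, against 11.87 ± 0.28 in SCR (SD, n = 3 each), is a level 17.1-fold lower, at 5.84% of SCR. The log2 difference was -4.10 ± 0.19 (SE), with a 95% confidence interval of -4.52 to -3.67. Among the 19572 probe sets this fall ranked 2 by size in that comparison.

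**Figure D1:**
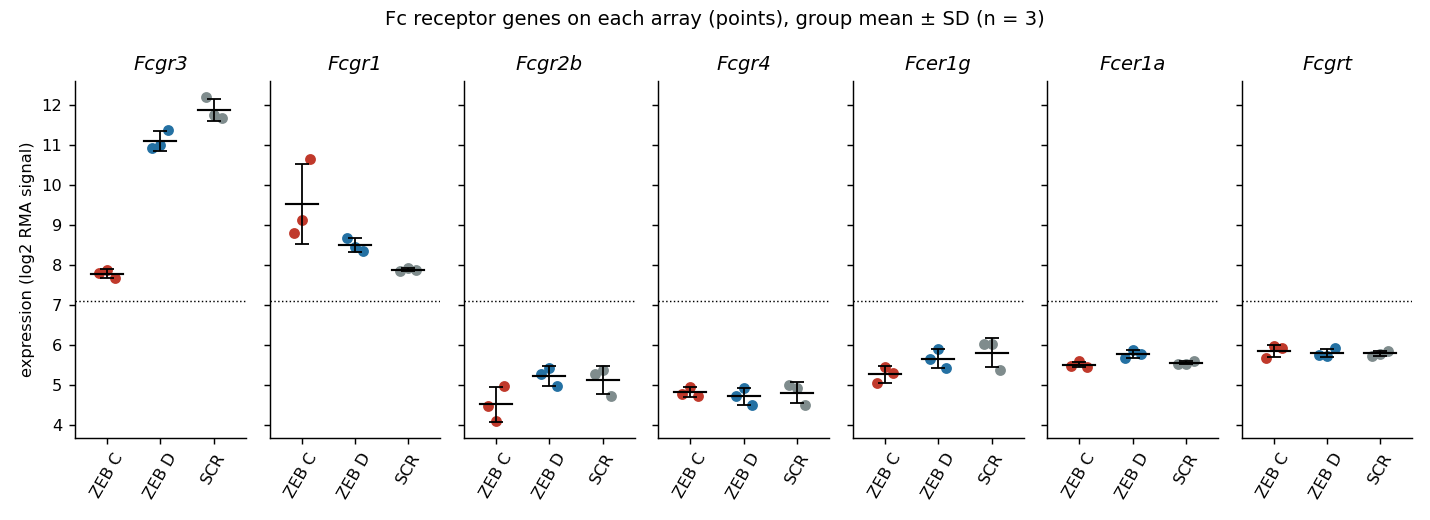
Log2 RMA signal (y axis) of the 7 Fc receptor genes on each array (points) of ZEB C, ZEB D and SCR, with the group mean and SD (bars, n = 3) and the median level of all named probe sets, 7.10 (dotted line). Fcgr3 separates into 3 levels with ZEB C lowest, Fcgr1 into 3 with ZEB C highest, and the other 5 genes lie below the dotted line in every group.

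In ZEB D, Fcgr3 averaged 11.10 ± 0.24, against 11.87 ± 0.28 in SCR, or 58.4% of the SCR level. That difference of -0.78 ± 0.19 (95% interval -1.20 to -0.35) had an unadjusted p of 0.00238 but missed the threshold over all probe sets (limma adjusted p = 0.118). Set directly against each other, ZEB D was 9.99-fold above ZEB C, a log2 difference of 3.32 ± 0.19. The order of Fcgr3 levels was thus ZEB C, ZEB D and SCR from low to high, with the step between ZEB D and SCR not called. Zeb1 ran in another order, being lowest in ZEB D and close to SCR in ZEB C.

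The fall of Fcgr3 was the same size within both sets of arrays. Among SCR 8 and ZEB C 12 it was -4.09 (1 array each), and among the other arrays of these groups -4.10 (2 each). For ZEB D the differences from SCR were -0.57 (2 arrays against 1) and -1.005 (1 against 2). In bulk RNA, fewer cells of a kind and less RNA per cell cannot be told apart. Marker lists of cell types known to carry Fcgr3 gave the following levels. The mean log2 level of 9 NK cell markers was 7.85 to 8.33 over ZEB C arrays, 6.40 to 7.49 over ZEB D and 6.64 to 6.94 over SCR. Their median difference from SCR was only 0.11 in ZEB C, with a range of -0.22 to 5.93, and 0.04 in ZEB D. Limma called 2 of the 9 higher in ZEB C than in SCR and 0 lower (0.945% of all probe sets in either direction), and 4 of 9, all higher, had an unadjusted p under 0.05 (8.77% of all probe sets). The called ones were Nkg7, a cytotoxic granule gene (5.93 ± 0.80, limma adjusted p = 0.0109, lost without SCR 8 or SCR 9), and Klrk1, the receptor NKG2D (1.98 ± 0.36, limma adjusted p = 0.0432, lost without 8 of the 9 arrays in turn, after another quantile normalization and with only the 2 groups compared). Klrd1, the receptor chain CD94, averaged 13.56 in ZEB C, 12.14 in ZEB D and 11.39 in SCR (2.16 ± 0.67 in ZEB C minus SCR, limma adjusted p = 0.271). The granzyme gene Gzma averaged 11.95, 10.09 and 11.84 in these groups, and ranged from 7.40 to 15.06 over the arrays. These 2 and Klrk1 averaged above the median level, and the other 6, Ncr1, Eomes and Prf1 among them (4.71, 5.03 and 5.29 over all arrays), below it. The mean of 8 monocyte and macrophage markers was 5.99 to 6.32 in ZEB C, 5.84 to 6.03 in ZEB D and 6.17 to 6.60 in SCR. The list's median difference from SCR was 0.075 in ZEB C and 0.045 in ZEB D, and its lowest differences were those of Ccr2, at -2.08 ± 0.79 in ZEB C (limma adjusted p = 0.431) and -3.21 ± 0.79 in ZEB D (limma adjusted p = 0.122). Ccr2 measured 8.14, 5.66 and 4.33 on the ZEB C arrays, so its mean there covers a wide spread. The mean of 10 mast cell and basophil markers was 7.256 to 7.389 in ZEB C, 7.162 to 7.24 in ZEB D and 7.055 to 7.134 in SCR. That of 11 granulocyte markers was 5.43 to 5.57, 5.41 to 5.82 and 5.48 to 5.53. Limma called 0 of either list in ZEB C against SCR (0.945% of all probe sets). An unadjusted p under 0.05 was found there for 1 and 0 of them (8.77%). The part of all these markers in the fall of Fcgr3 was not tested.

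Fcgr1, the high-affinity IgG receptor CD64, ran the other way. It measured 8.79, 9.12 and 10.65 in ZEB C, 8.68, 8.45 and 8.34 in ZEB D and 7.84, 7.93 and 7.87 in SCR. The groups did not overlap, although ZEB C 10 lay close to ZEB D 13, and ZEB C 12 stood above the other ZEB C arrays. The mean was 9.52 ± 0.99 in ZEB C and 7.88 ± 0.05 in SCR (SD, n = 3 each), a log2 difference of 1.64 ± 0.40 (SE), or 3.12-fold. This missed the threshold (limma adjusted p = 0.131, unadjusted p = 0.00265). It passed at 1.07 without ZEB C 12 (adjusted p = 0.0374), at 1.24 with array weights (0.0429) and at 1.64 with the array sets as a covariate (0.0245). The array sets were drawn from the residuals of these same arrays, so that covariate takes out spread within groups by construction. Array weights were drawn from the same residuals and gave ZEB C 12 a low weight of 0.422. Passing with them is therefore not independent of passing without that array. Nothing is read from passing with the covariate or the weights. Over all 18 other settings of the limma fit the adjusted p ran from 0.0245 to 0.367.

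In ZEB D, Fcgr1 averaged 8.49 ± 0.17, against 7.88 ± 0.05 in SCR, a difference of 0.61 ± 0.40 that was not called (limma adjusted p = 0.539). ZEB D stood below ZEB C by a log2 difference of -1.03 ± 0.40 (limma adjusted p = 0.355), with a 95% interval of -1.94 to -0.12. The order was ZEB C, ZEB D and SCR from high to low, and no step of it was called. Within the array sets the difference of ZEB C from SCR was 2.72 (1 array each) and 1.10 (2 each), and that of ZEB D from SCR was 0.465 (2 arrays against 1) and 0.825 (1 against 2). Nkg7 was likewise highest on ZEB C 12, at 9.11, 9.79 and 12.65 in ZEB C, against 4.49, 4.32 and 4.94 in SCR. Its part in the Fcgr1 values was not tested.

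Fcer1g, the signalling chain that Fcgr1, Fcgr3 and Fcgr4 share, was dim on every array. It measured 5.04, 5.45 and 5.30 in ZEB C, 5.64, 5.90 and 5.42 in ZEB D and 6.02, 6.02 and 5.38 in SCR. The groups overlapped, and the difference of ZEB C from SCR was -0.54 ± 0.22 (limma adjusted p = 0.491, unadjusted p = 0.0352). The difference of ZEB D from SCR was -0.15 ± 0.22, with a 95% interval of -0.65 to 0.34. Fcer1g lay below the median level of all probe sets in each group. A probe set's brightness depends on its probes. Setting the levels of different genes against each other or against the median level is therefore only a rough guide to RNA amounts.

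Fcgr2b, the inhibitory receptor, measured 4.47, 4.10 and 4.96 in ZEB C, 5.27, 5.43 and 4.96 in ZEB D and 5.28, 5.36 and 4.71 in SCR. ZEB C 10 and ZEB C 11 were the lowest arrays of all, but ZEB C 12 lay above SCR 9. The difference of ZEB C from SCR was -0.61 ± 0.26 (limma adjusted p = 0.543, unadjusted p = 0.0439), and that of ZEB D from ZEB C 0.71 ± 0.26 (limma adjusted p = 0.322). ZEB D differed from SCR by 0.10 ± 0.26, with a 95% interval of -0.48 to 0.69.

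Fcgr4, the IgG receptor encoded between Fcgr2b and Fcgr3, ranged from 4.49 to 4.99 over all arrays. Its differences from SCR were 0.01 ± 0.18 in ZEB C (95% interval -0.40 to 0.42) and -0.09 ± 0.18 in ZEB D (-0.50 to 0.32). Fcgr2b, Fcgr3 and Fcgr4 are paralogues with similar extracellular parts, and probes that share sequence could read each other's RNA, which was not tested.

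Fcer1a, the IgE-binding chain, measured 5.48, 5.59 and 5.45 in ZEB C, 5.66, 5.86 and 5.77 in ZEB D and 5.53, 5.52 and 5.59 in SCR. The ZEB D arrays lay above both other groups, by 0.22 ± 0.13 over SCR (limma adjusted p = 0.496) and by 0.26 ± 0.13 over ZEB C (limma adjusted p = 0.485). Fcgrt, the IgG recycling receptor, ranged from 5.68 to 5.97 over all arrays, the narrowest range of the 7 genes. Its differences from SCR were 0.07 ± 0.14 in ZEB C (95% interval -0.25 to 0.39) and 0.01 ± 0.14 in ZEB D (-0.31 to 0.33).

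**Figure D2:**
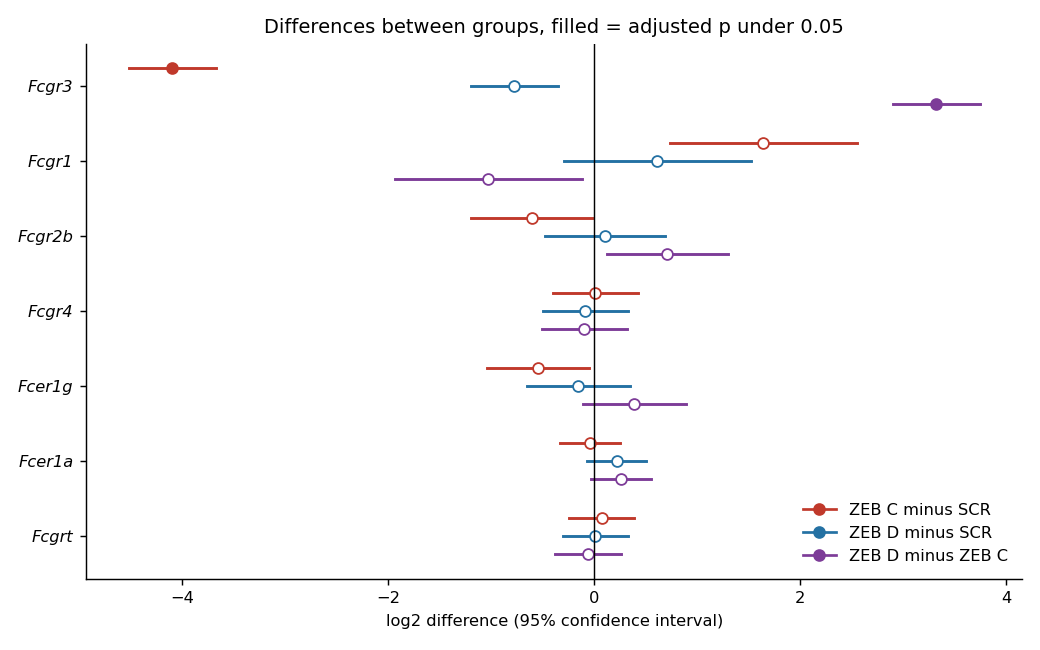
Log2 difference (x axis) of each Fc receptor gene in ZEB C minus SCR, ZEB D minus SCR and ZEB D minus ZEB C, with 95% confidence intervals (lines). The filled points, those with an adjusted p under 0.05 in limma, are Fcgr3 at -4.10 in ZEB C minus SCR and at 3.32 in ZEB D minus ZEB C.

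Counted together, limma called 1 of the 7 genes in ZEB C against SCR, where it called 0.945% of all probe sets, and 1 of 7 between ZEB D and ZEB C, where it called 0.848%. Both are Fcgr3, whose fall chose the family, so nothing is read from these counts. In ZEB D against SCR limma called 0 of 7 (0.843% of all probe sets), and 1 of 7, Fcgr3, had an unadjusted p under 0.05, against 13.6% of all probe sets. In ZEB C against SCR 4 of 7 had an unadjusted p under 0.05, against 8.77% of all probe sets, and in ZEB D against ZEB C 3 of 7 did, against 11.7%. Groups did not overlap for 2 of 7 genes in ZEB C against SCR (14.2% of all probe sets), 3 of 7 in ZEB D against SCR (17.0%) and 3 of 7 in ZEB D against ZEB C (15.2%). In comparisons with ZEB C, the counts by unadjusted p and by overlap also include Fcgr3, whose values chose the family. Nothing is read from those counts either. The median log2 difference of the 7 genes was -0.04, 0.01 and 0.26 in these 3 comparisons, against 0.00, 0.04 and 0.04 over all probe sets. Each pair of these comparisons shares 1 group of arrays.

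The genes next to Fcgr3 did not show differences of its size in ZEB C. In the order of genes in the RefSeq table of GRCm38.p6, Fcgr2b, Fcgr4 and Fcgr3 are consecutive measured genes on chromosome 1, and Fcer1g is the seventh beyond Fcgr3. Over the 10 measured genes on either side, the median log2 difference of ZEB C from SCR was -0.05, with a range of -1.06 to 0.47. Only 10 of these 20 lay above the median level of all named probe sets. Dim ones such as Fcgr4 (4.77 on average, with 3.26 the lowest value in the data) could not show a fall of that size. Limma called 0 of these 20 neighbours in ZEB C against SCR and 0 in ZEB D against SCR, where it called 0.945% and 0.843% of all probe sets. An unadjusted p under 0.05 was found for 3 and 1 of them, against 8.77% and 13.6% of all probe sets. The 3 in ZEB C were all lower: Fcgr2b (-0.61), Fcer1g (-0.54) and Nos1ap (-1.06), an adaptor of neuronal nitric oxide synthase. Between ZEB D and ZEB C limma called 1, Nos1ap (2.35 ± 0.27, limma adjusted p = 0.00672), against 0.848% of all probe sets. Around Fcgr1, on chromosome 3, the 20 neighbours had a median of 0.06 in ZEB C minus SCR, with a range of -1.0 to 0.71, and limma called 0 of them (2 with unadjusted p under 0.05).

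**Figure D3:**
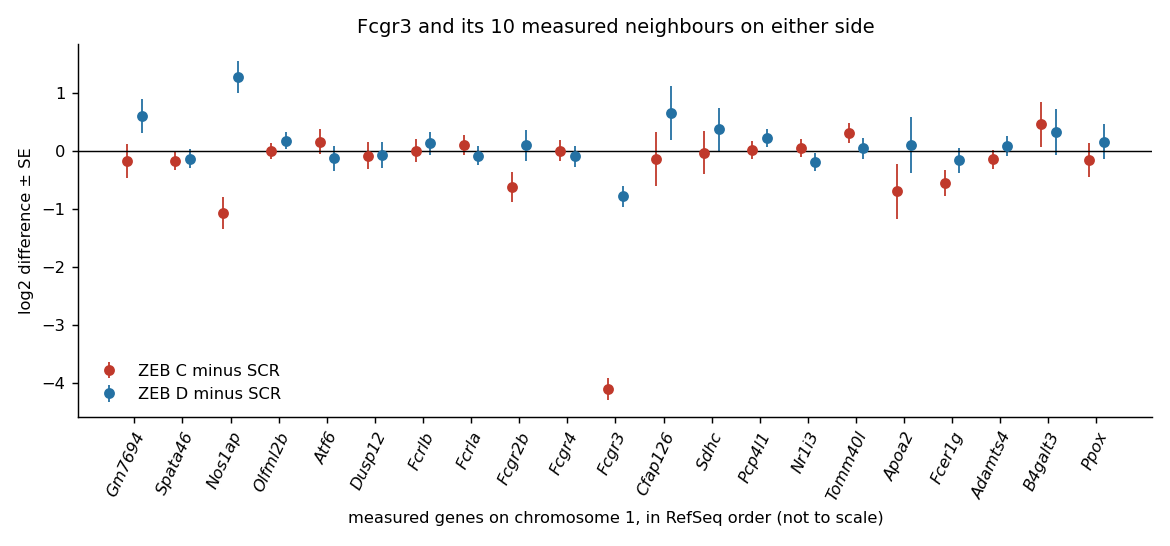
Log2 difference from SCR ± SE (y axis) of Fcgr3 and the 10 measured genes on either side of it on chromosome 1, in gene order (x axis, not to scale), for ZEB C and ZEB D. Fcgr3 lies at -4.10 in ZEB C, while its neighbours lie between -1.06 and 0.47.

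The promoters of Fcgr3, Fcgr1 and Fcgr4 are shown because the first 2 are the receptors whose groups separated against SCR with both hairpins, and Fcgr4 is the adjacent paralogue that did not. Each is the 250 bases before the gene's start in RefSeq (GRCm38.p6), written along the gene: Fcgr3 at chr1:171059404-171059653 (minus strand, the first of its 2 listed starts), Fcgr1 at chr3:96293970-96294219 (minus strand) and Fcgr4 at chr1:171018676-171018925 (plus strand). Capitals mark 2 motifs searched on both strands: GAGGAA, whose complement on the other strand reads TTCCTC, a core known for the myeloid factor PU.1, and TTCNNNGAA, the interferon-gamma activated site, which reads the same on both strands.
Fcgr3: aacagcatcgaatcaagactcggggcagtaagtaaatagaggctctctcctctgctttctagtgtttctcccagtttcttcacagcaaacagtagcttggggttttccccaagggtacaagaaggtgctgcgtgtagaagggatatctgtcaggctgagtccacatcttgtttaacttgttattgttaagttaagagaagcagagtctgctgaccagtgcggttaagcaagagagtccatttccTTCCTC
Fcgr1: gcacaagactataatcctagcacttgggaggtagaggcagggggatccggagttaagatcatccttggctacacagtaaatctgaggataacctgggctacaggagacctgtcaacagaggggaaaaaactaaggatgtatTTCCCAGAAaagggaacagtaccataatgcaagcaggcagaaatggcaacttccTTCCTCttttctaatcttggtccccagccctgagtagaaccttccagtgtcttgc
Fcgr4: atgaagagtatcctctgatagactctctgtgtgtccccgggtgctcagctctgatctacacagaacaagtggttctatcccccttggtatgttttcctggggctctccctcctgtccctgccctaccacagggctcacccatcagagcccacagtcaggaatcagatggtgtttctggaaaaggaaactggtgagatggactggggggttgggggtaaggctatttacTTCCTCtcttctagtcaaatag

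GAGGAA or its complement was found in 4 of the 7 promoters (Fcgr1, Fcgr3, Fcgr4 and Fcer1a), against 23.3% of all 32851 promoter windows of this length. In Fcgr3, Fcgr4 and Fcgr1 it starts 6, 22 and 55 bases before the start. TTCNNNGAA was found in 1 of 7, Fcgr1, where it starts 109 bases before the start, against 7.02% of all windows, and it does not overlap the other motif. The run TTCCTTCCTC, chosen after the sequences were seen, is shared by Fcgr3 and Fcgr1 and found in 0.402% of all windows. Such a run is not particular to this pair. Fcer1a and Fcgrt share 11 bases, found in 0.0122% of windows, and Fcgr3 and Fcer1a share 10 bases, found in 0.24%. CAGGTG, an E-box known for Zeb1, which reads CACCTG on the other strand, was found in 0 of the 7 windows, against 17.2% of all windows. These matches describe letters only, and say nothing of binding.

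Genes that work with the receptors were taken from lists by role, and listed genes without a named probe set were not analysed here. Limma called 0.945%, 0.843% and 0.848% of all probe sets in ZEB C minus SCR, ZEB D minus SCR and ZEB D minus ZEB C. An unadjusted p under 0.05 was found for 8.77%, 13.6% and 11.7% of all probe sets. At such shares a short list may hold no call, so nothing is read from a count of 0. Of 13 other Fc receptors and Fc receptor-like genes limma called 0 in any comparison, with unadjusted p under 0.05 for 1, 0 and 1 of them in ZEB C minus SCR, ZEB D minus SCR and ZEB D minus ZEB C. The brightest of them were Fcgbp, an IgG-binding mucus protein (8.04, 7.79 and 7.99 on average in ZEB C, ZEB D and SCR), and Fcrls. Of 14 measured adaptors and partners of Fcer1g limma called 0, with unadjusted p under 0.05 for 1, 2 and 1, and 12 lay below the median level. Siglech and Cd247, the T cell receptor zeta chain, were the brightest of these. Tyrobp, the other common ITAM adaptor, named for its role, averaged 5.37 ± 0.34 in ZEB C, 5.62 ± 0.33 in ZEB D and 6.09 ± 0.31 in SCR.

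Downstream of activating receptors, limma called 2 of 36 genes in ZEB C against SCR, both higher, 0 in ZEB D against SCR and 1 higher and 1 lower in ZEB D against ZEB C, where it called 0.945%, 0.843% and 0.848% of all probe sets. An unadjusted p under 0.05 was found for 12, 6 and 10 of the 36, against 8.77%, 13.6% and 11.7% of all probe sets. Lcp2, the scaffold SLP-76, measured 12.29, 11.44 and 12.22 in ZEB C, 7.66, 7.84 and 7.27 in ZEB D and 8.71, 8.03 and 7.87 in SCR. It rose in ZEB C over SCR by 3.78 ± 0.30 (limma adjusted p = 9.87e-04), and was lower in ZEB D than in ZEB C by 4.39 on the log2 scale. Lat2, an adaptor of mast cells and B cells, measured 10.23, 9.53 and 10.50 in ZEB C, 8.97, 9.40 and 9.48 in ZEB D and 7.04, 8.23 and 7.55 in SCR. It rose in ZEB C by 2.48 ± 0.34 (limma adjusted p = 0.0109), a call lost without SCR 9 or ZEB C 10 (2 of the 9 arrays), and in ZEB D the difference was 1.68 ± 0.34 (limma adjusted p = 0.0687). Sh3bp2, an adaptor of Syk, was higher in ZEB D than in ZEB C by 1.82 ± 0.26 (limma adjusted p = 0.0154), a call lost without ZEB C 10, ZEB D 14 or ZEB D 15 and with only the 2 groups compared. The kinase Syk itself, named for its role, averaged 7.11, 7.04 and 7.17 in ZEB C, ZEB D and SCR.

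The list's median difference from SCR was 0.12 in ZEB C and 0.03 in ZEB D, against 0.00 and 0.04 over all probe sets. Its mean level was 9.45 to 9.56 over ZEB C arrays, 8.99 to 9.28 over ZEB D and 8.99 to 9.21 over SCR. The genes with the largest differences that were not called included Ncf4, an NADPH oxidase subunit chosen after its values were seen. It measured 9.95, 10.49 and 11.84 in ZEB C, 7.38, 10.08 and 7.55 in ZEB D and 7.43, 7.50 and 7.42 in SCR (3.31 ± 0.70 in ZEB C minus SCR, limma adjusted p = 0.0754). Here 1 ZEB D array, ZEB D 14, stood with ZEB C.

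**Figure D4:**
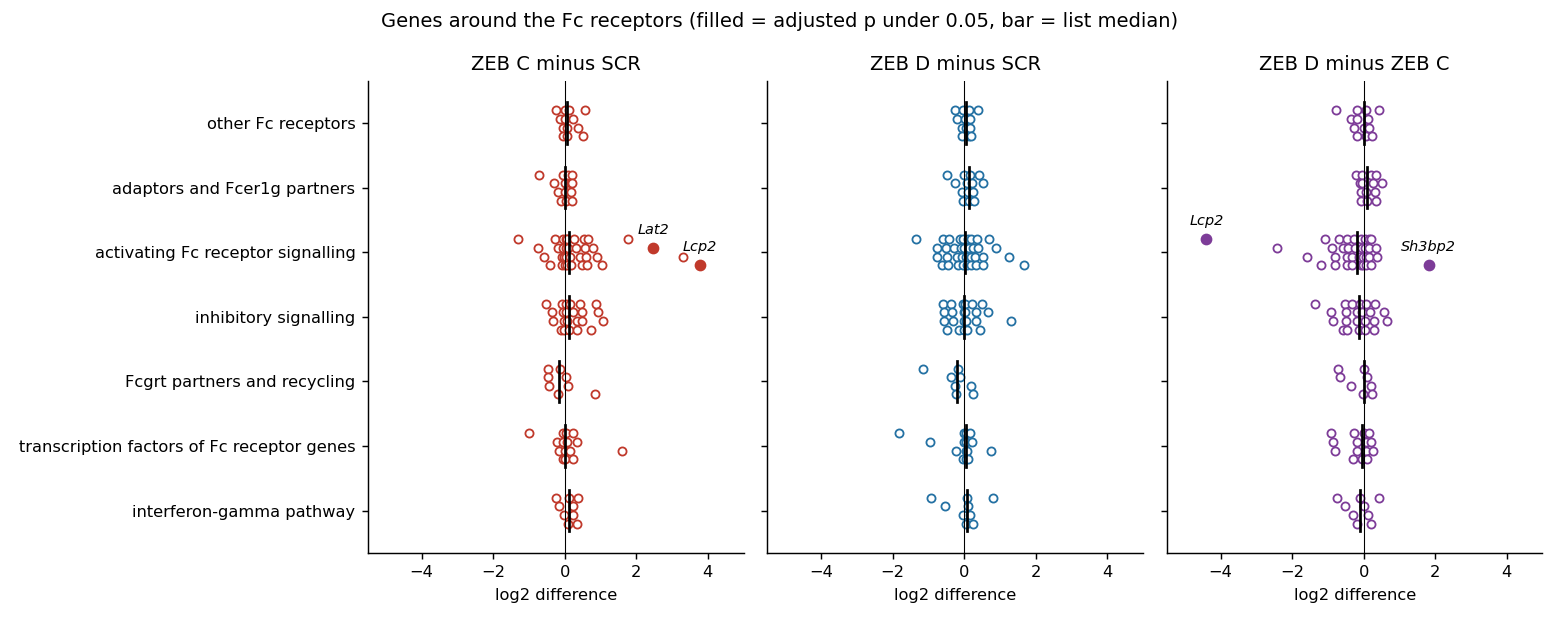
Log2 differences (x axis) of genes in 7 lists by role (rows) for ZEB C minus SCR, ZEB D minus SCR and ZEB D minus ZEB C, 1 point per gene, with the list median (black bar). Filled points passed an adjusted p under 0.05 in limma: Lat2 and Lcp2 in ZEB C minus SCR, and Lcp2 and Sh3bp2 in ZEB D minus ZEB C.

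Of 23 inhibitory signalling genes limma called 0 in any comparison, with unadjusted p under 0.05 for 3, 3 and 4. Over all probe sets the shares called were 0.945%, 0.843% and 0.848%, and those with unadjusted p under 0.05 were 8.77%, 13.6% and 11.7%. Inpp5d, the phosphatase that Fcgr2b recruits, named for its role, averaged 13.16 ± 0.41 in ZEB C, 11.79 ± 0.35 in ZEB D and 12.09 ± 0.36 in SCR (1.07 ± 0.27 in ZEB C minus SCR, limma adjusted p = 0.153). Csk and Ptpn22, a kinase and a phosphatase that restrain Src family kinases, were the brightest of the list. Of 8 measured partners of Fcgrt and recycling genes limma called 0 (unadjusted p under 0.05 for 2, 1 and 1). The light chain gene B2m averaged 15.04, 14.38 and 14.20 in ZEB C, ZEB D and SCR, and Rab11a, a recycling GTPase, 15.61, 15.69 and 16.05.

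Of 15 transcription factors tied to Fc receptor genes limma called 0 (unadjusted p under 0.05 for 3, 2 and 1). Over all probe sets the shares called were 0.945%, 0.843% and 0.848%, and those with unadjusted p under 0.05 were 8.77%, 13.6% and 11.7%. The brightest of the 15 factors were Elf1 (13.99, 14.26 and 14.20 in ZEB C, ZEB D and SCR) and Sp1 (12.58, 12.31 and 12.34). Spi1, which encodes PU.1 and is named for its role, averaged 5.48 ± 0.21 in ZEB C, 5.55 ± 0.15 in ZEB D and 5.34 ± 0.30 in SCR, below the median level in each group. Of 9 measured genes of the interferon-gamma pathway, known to induce Fcgr1, limma called 0 (unadjusted p under 0.05 for 1, 2 and 2). Ifngr2, a receptor chain, averaged 11.38, 11.81 and 11.02 in ZEB C, ZEB D and SCR, and the kinase gene Jak1 averaged 11.07, 10.32 and 11.24. The list's median difference from SCR was 0.12 in ZEB C and 0.07 in ZEB D.

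Profiles most like a receptor's were ranked by the root mean square difference over the 9 arrays, each profile centred on its own mean, for the receptors whose range passed 2 log2 units. Probe sets named as predicted, clone, olfactory, vomeronasal, micro-RNA or snoRNA genes were left out of the ranking. For Fcgr3 the nearest were Fam122a (0.74), Syne4 (0.77), Gphn (0.92), Sgms1 (0.97) and Plcd3 (0.97), which lie on chromosomes 19, 7, 12, 19 and 11. Their log2 differences of ZEB C from SCR were -2.71, -2.73, -1.96, -2.42 and -3.90, a direction that the choice by likeness to Fcgr3 fixed, so they are given with no test. Gphn encodes the scaffold gephyrin, Sgms1 a sphingomyelin synthase and Plcd3 a phospholipase C. Their differences of ZEB D from SCR were 0.36, -0.23, -0.07, -0.95 and -2.66, against -0.78 for Fcgr3.

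For Fcgr1 the nearest profiles were Fbxw17 (0.19), Nox1 (0.20), Dhrs9 (0.24), Tmem71 (0.27) and Klra9 (0.28), on chromosomes 13, X, 2, 15 and 6. All 5 were highest on ZEB C 12, which follows from their choice by likeness to Fcgr1. Nox1 encodes an NADPH oxidase and Klra9 a receptor of the Ly49 family of NK cells. Their differences of ZEB C from SCR were 1.26 to 1.81, given with no test for the same reason.

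**Figure D5:**
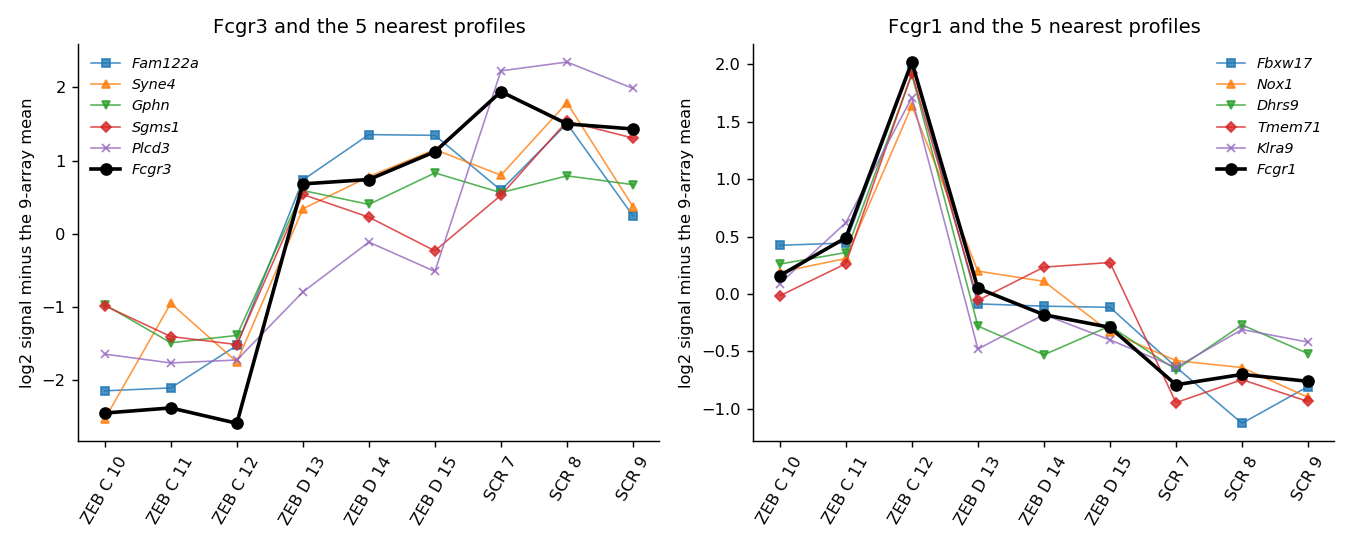
Log2 signal minus the 9-array mean (y axis) on each array (x axis) for Fcgr3 (left, black) and Fcgr1 (right, black) with the 5 nearest profiles of each (colours); lines only guide the eye. Fcgr3 is low on the 3 ZEB C arrays, and Fcgr1 peaks on ZEB C 12.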

How the data were processed

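RNA of 9 arrays in 3 groups (ZEB C, ZEB D and SCR) was analysed, with groups taken from the sample titles. The authors' deposited values are named a score here: linear RMA signals whose decimal point was lost in the file. Per the submitters' processing notes they were made with RMA in Transcriptome Analysis Console; build and annotation are not given in the sources used here. Each of the 199854 values was read back as a log2 value on a grid of 0.01 (tolerance 1e-06 of a step), giving log2 levels of 3.26 to 17.44. Array medians ran from 6.97 to 7.16, so no rescaling was done, and no 2 arrays were identical.

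Of 22206 probe sets, 19572 had 1 gene symbol, 0 had several and 2634 had none. All 19572 were fitted with limma 3.58.1 (R 4.3.3), with 1 mean per group, and p-values were adjusted by Benjamini-Hochberg over all of them. A call is an adjusted p under 0.05, and intervals are 95%. The fit was tested on simulated data.

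The members and lists were chosen with earlier results of these data known. Named were the 7 members, list genes that were called and the 2 brightest genes of a list with no call. Called neighbours and the 5 nearest profiles were named too. Other genes were named for their role or after their values were seen. The reason is stated where they appear, except for the cell type markers that were not called, which followed no fixed rule. Array sets are signs of a principal component, not recorded batches. Alternatives were array weights, array sets, other normalizations and priors, filters, only 2 groups, an exact permutation test and leaving out each array.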

Additional observations from a re-analysis of the deposited data

Results flagged for a closer look

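Fcgr3 differed between the hairpins themselves: ZEB D was above ZEB C by 3.32 ± 0.19 on the log2 scale (SE, n = 3 each), a difference that chose the family and is given as a description. Zeb1 was lower in ZEB D than in ZEB C by 0.85 on that scale (limma adjusted p = 0.056). What separates the hairpins was not tested.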

How the results depend on the processing

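No paired analysis was possible because the groups share no replicate numbers. Fcgr3 kept its call under all 18 other limma settings in ZEB C minus SCR (-4.19 to -3.94) and in ZEB D minus ZEB C (3.18 to 3.40), and had none in ZEB D minus SCR (-0.91 to -0.62, adjusted p 0.0558 to 0.287). By the exact permutation test its differences of -4.10 and 3.32 had p = 0.1, two-sided, the smallest that 3 against 3 allows. Both differences chose the family, so their calls and p-values are a description and no further support. Fcgr1 in ZEB C minus SCR passed with the array sets (1.64) and array weights (1.24), and ran from 1.07 to 2.00 without each array in turn, passing only without ZEB C 12. The array sets and the array weights were drawn from the residuals of these same arrays, so nothing is read from passing with them.

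Over all probe sets, limma called 185, 165 and 166 in ZEB C minus SCR, ZEB D minus SCR and ZEB D minus ZEB C. Array weights gave 572, 1076 and 833, array sets 875, 772 and 700, and without each array in turn the counts ran 43 to 214, 14 to 213 and 49 to 162. With only the 2 groups compared they were 68 in ZEB D minus SCR and 81 in ZEB D minus ZEB C.

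Signs turned for small differences that no setting called. Fcgr4 in ZEB C minus SCR was -0.0133 after quantile normalization and -0.06 with array medians subtracted, and -0.14 to 0.11 without each array (-0.14 without SCR 9, -0.06 without ZEB C 11). In ZEB D minus SCR it ran from -0.2367 to 0.025 without each array, being 0.0083 without SCR 7 and 0.025 without ZEB D 15, and in ZEB D minus ZEB C from -0.20 to 0.015 (0.015 without ZEB D 15). Fcgr2b in ZEB D minus SCR was -0.0039 with array sets, and -0.10 to 0.23 without each array (-0.10 without SCR 9, -0.0017 without ZEB D 14). Fcgrt in ZEB D minus SCR was -0.0922 after quantile normalization, -0.0833 with medians subtracted, -0.0078 with array sets, and -0.0533 to 0.0467 without each array (-0.0217 without SCR 7, -0.0533 without ZEB D 15), and in ZEB D minus ZEB C 0.0014 with array weights. The cause was not tested. The filter on dim probe sets left only Fcgr3 and Fcgr1 of the 7, and another probe set could not be tried, as each gene has 1.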

Other observations

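Among the 20 measured neighbours of Fcer1a on chromosome 1, limma called Aim2, a sensor of cytosolic DNA. It was lower in ZEB D than in SCR by a log2 difference of -1.42 ± 0.20 (limma adjusted p = 0.021, lost without 4 of the 9 arrays in turn) and lower in ZEB D than in ZEB C by -1.33 (limma adjusted p = 0.0204, lost without 2 of the 9 and with only the 2 groups compared).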
